A study of Mus musculus with 12 samples.

Results

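The genes described here are the heat shock proteins and cytosolic chaperonins, 32 genes picked by symbol from the 23965 gene rows of a read count table, and all 32 were found. They comprise 7 genes of the HSP70 and HSP110 families, 3 J proteins or nucleotide exchange factors, 9 genes of HSP90 and its co-chaperones, the mitochondrial pair HSP60 and HSP10, 1 small heat shock protein and 10 genes of the chaperonin TRiC and its helpers. RNA was sequenced from neurosphere cultures of ventral midbrain taken from CD-1 mouse embryos at E11.5. After 3 days of expansion the spheres spent 5 h in N2 medium with the solvent DMSO (control), with the LXR agonist GW3965, with the GSK3 beta inhibitor CT99021, or with both compounds. Each of the 4 groups had 3 libraries, numbered 1 to 3 in the labels, and what a number stands for is not stated. Separate cultures are not stated either, so p-values reflect only how far these libraries scatter, which may be technical scatter. The labels name no genetic change in any group.

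Chaperones bind unfolded protein chains and help them reach their native shape. HSP70 proteins clamp short hydrophobic stretches under the control of J proteins and nucleotide exchange factors, and HSP90 finishes the folding of clients such as kinases and nuclear receptors with a series of co-chaperones. HSP60 and HSP10 form the folding chamber of the mitochondrial matrix, and TRiC (also called CCT) is the double-ring chamber of the cytosol that folds actin and tubulin. GSK3 beta marks beta-catenin for degradation, and its inhibition switches on Wnt target genes, while LXR is a receptor for oxysterols that controls cholesterol export.

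Gene counts per library ran from 9646424 to 21314093, and the 32 genes took 0.999% to 1.5% of them. All 32 entered the test with 15608 genes in all, and 31 had at least 100 counts in every library, the exception being Hspb1. Axin2, a target of Wnt signalling, rose by a log2 fold change of 1.68 ± 0.14 with CT99021, and Abca1, a target of LXR, rose by 1.89 ± 0.17 with GW3965. The 11 listed markers of ventral midbrain and neural progenitors were all read, at a summed 922.9 to 1757 CPM, the count relative to the scaled total of a library, and none was at 0 in all libraries. Their sum was lower with CT99021 than without it in all 6 pairs of a replicate number (3 without and 3 with GW3965). Libraries with the same number deviated from their group means together, and the 4 libraries numbered 3 stood apart. Fold changes, standard errors (the ± beside them) and Benjamini-Hochberg adjusted p therefore come from the quasi-likelihood test of edgeR in which replicate number is a block, and "rose" and "fell" mean an adjusted p under 0.05 in it.

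Control levels spanned a wide range. Per kilobase of listed length, Hspa8, the constitutive HSP70 of the cytosol, led with 1018 ± 120 CPM per kilobase (SD, n = 3), and Hsp90ab1, the constitutive HSP90, followed with 1003 ± 150. These differed by less than their spread. Hsp90aa1, the inducible HSP90, came next at 318 ± 48.7. The 8 TRiC subunits lay close together below it, from 121 ± 11.4 for Cct3 to 192 ± 33.0 for Cct5, with Cct2 at 178, Tcp1 at 159, Cct6a at 155, Cct8 at 134, Cct4 at 128 and Cct7 at 124, and no neighbours in this order differed beyond their spread. A middle group held Fkbp4 at 122.9, St13 at 120, Hspd1 at 119, Stip1 at 100.1, Hspa9 at 96.5, Hspa4 at 90.9, Ahsa1 at 81.5 and Hspe1 at 69.7. Pfdn2 stood at 61.6, Cdc37 at 59.8, Dnaja1 at 58.1, Hsph1 at 42.4, Ppid at 29.2, Dnajb1 at 28.7, Hspa1b at 27.8, Hspa1a at 25.5, Trap1 at 25.2, Pdcl3 at 24.7, Hspa4l at 20.4 and Bag3 at 11.9. Hspb1, the small heat shock protein HSP27, was lowest at 3.28 ± 1.81 CPM per kilobase. Hspa8 and Hsp90ab1 alone held 39.9% to 42.7% of the counts of the 32 genes in each of the 12 libraries.

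The libraries with CT99021 alone were set against control. Of the 32 genes 12 rose and 0 fell, in CT99021 against control, against 15.8% of all genes past the test in either direction and 8.23% higher. The 12 were Hspd1, Hspe1, Hsph1, Ppid, Ahsa1, Hsp90ab1 and the TRiC subunits Tcp1, Cct2, Cct3, Cct4, Cct5 and Cct8. The changes were modest, with a median log2 fold change of 0.20 over the 32 genes (0.02 over all genes), and 26 of the 32 were positive. Genes at 20 CPM or more, a level that 31 of the 32 reach and that was set after the data were seen, were past the test and higher in 12.5% of 8690 cases. Within the replicate numbers 22 of the 32 were higher with CT99021 in all 3 pairs, against 28.5% of all genes. The CT99021 and control groups did not overlap for 3 of the 32 higher (Hspd1, Cct3 and Cct4) and 1 lower (Dnaja1). Of all genes 14.8% had these groups apart in either direction. Without the block edgeR called 0 of the 32 (4 at an unadjusted p under 0.05), against 0.0577% of all genes. Leaving out 1 library at a time, 4 of the 12 were called again without Control replicate 1, 3 without its replicate 2, 6 without CT99021 replicate 1 (where Cdc37 was called as well) and 5 without its replicate 2. Hspd1, Hspe1 and Ppid were past the test in each of these fits and with Control replicate 3 or CT99021 replicate 3 left out.

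**Figure D1:**
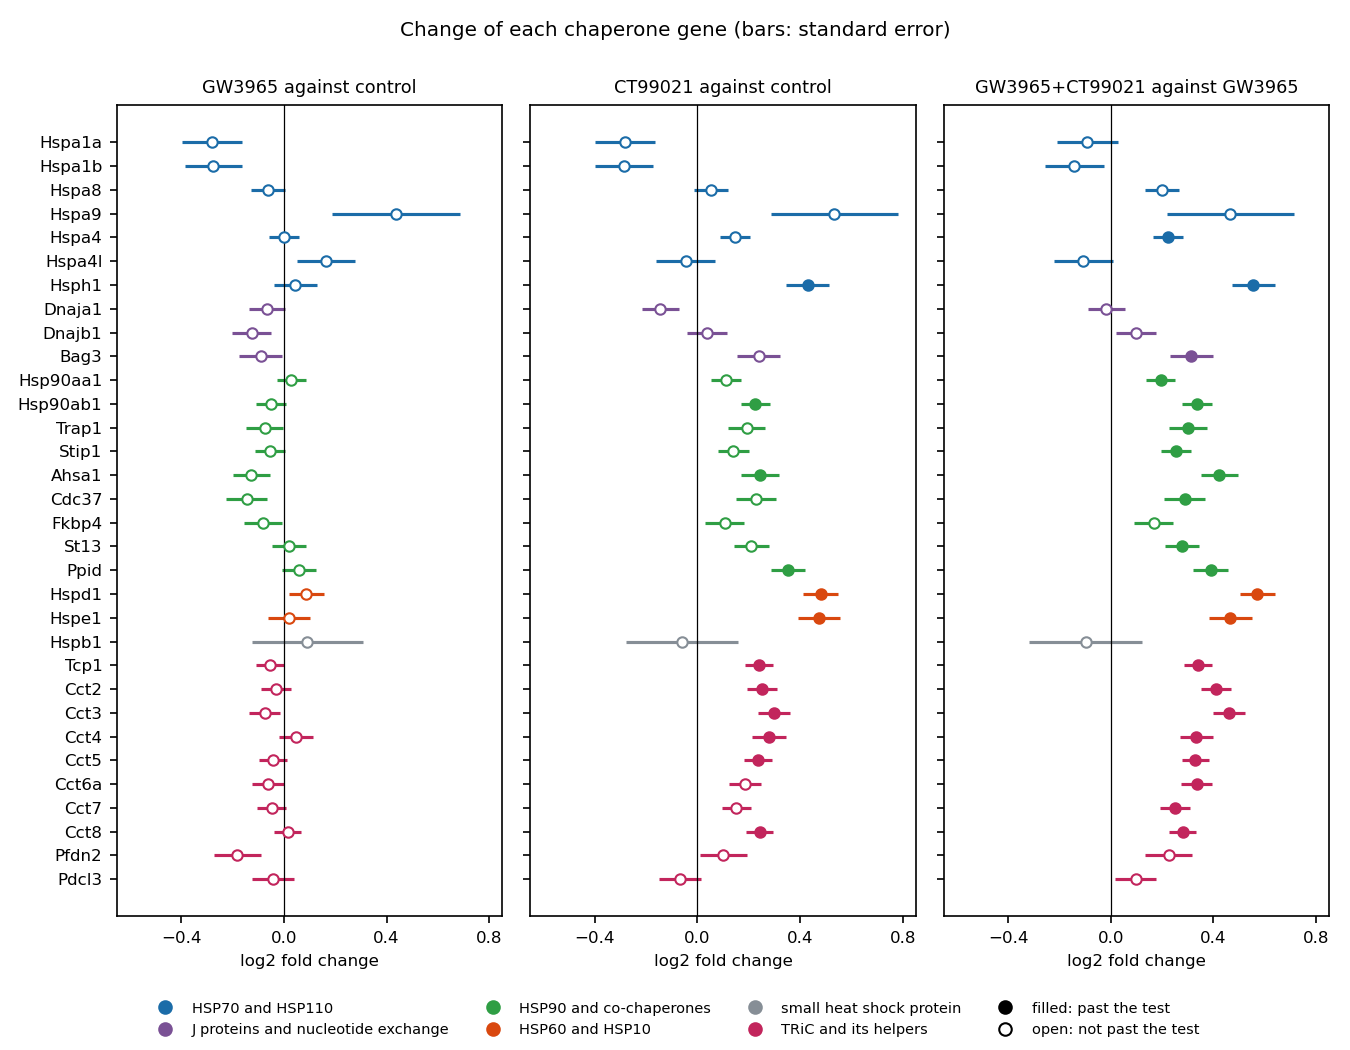
Log2 fold change (horizontal axis) with its standard error for each of the 32 genes (vertical axis, grouped by family) in 3 comparisons, by edgeR with replicate number as a block. Filled points are past the test: 0 with GW3965 alone, 12 with CT99021 against control and 21 with both compounds against GW3965, all of them higher.

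Of the genes past the test with CT99021 alone, those of the mitochondrial chamber had the largest log2 fold changes. Hspd1 and Hspe1, which encode HSP60 and its lid HSP10, are listed at positions 55134677 and 55144891 of chromosome 1 in mm9, on opposite strands. Hspd1 was read at 329.9, 322 and 219 CPM in control replicates 1 to 3 and at 423, 449.6 and 333 CPM with CT99021, with no overlap of these groups. GW3965 libraries held 327, 326 and 263 CPM, and libraries with both compounds 494, 484 and 384. Hspd1 rose with CT99021 by a log2 fold change of 0.48 ± 0.07 (39.5% higher, edgeR adjusted p = 0.00259). With both compounds it rose by 0.66 ± 0.07 against control (edgeR adjusted p = 0.000418) and by 0.57 ± 0.07 against GW3965 (edgeR adjusted p = 0.000956). Hspe1 had 69.7, 69.8 and 42.1 CPM in control, 68.1, 71.7 and 43.9 with GW3965, 87.9, 96.4 and 65.3 with CT99021 and 96.0, 87.4 and 67.7 with both. In each group the library numbered 3 was the lowest, so groups overlapped although every CT99021 library lay above the control of its number. Hspe1 rose by 0.47 ± 0.08 with CT99021 (39.0% higher, edgeR adjusted p = 0.00592), by 0.49 ± 0.08 with both against control (edgeR adjusted p = 0.00397) and by 0.47 ± 0.08 with both against GW3965 (edgeR adjusted p = 0.0046). The ratio of Hspd1 to Hspe1 per kilobase stayed between 1.63 and 2.13 in the 12 libraries.

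**Figure D2:**
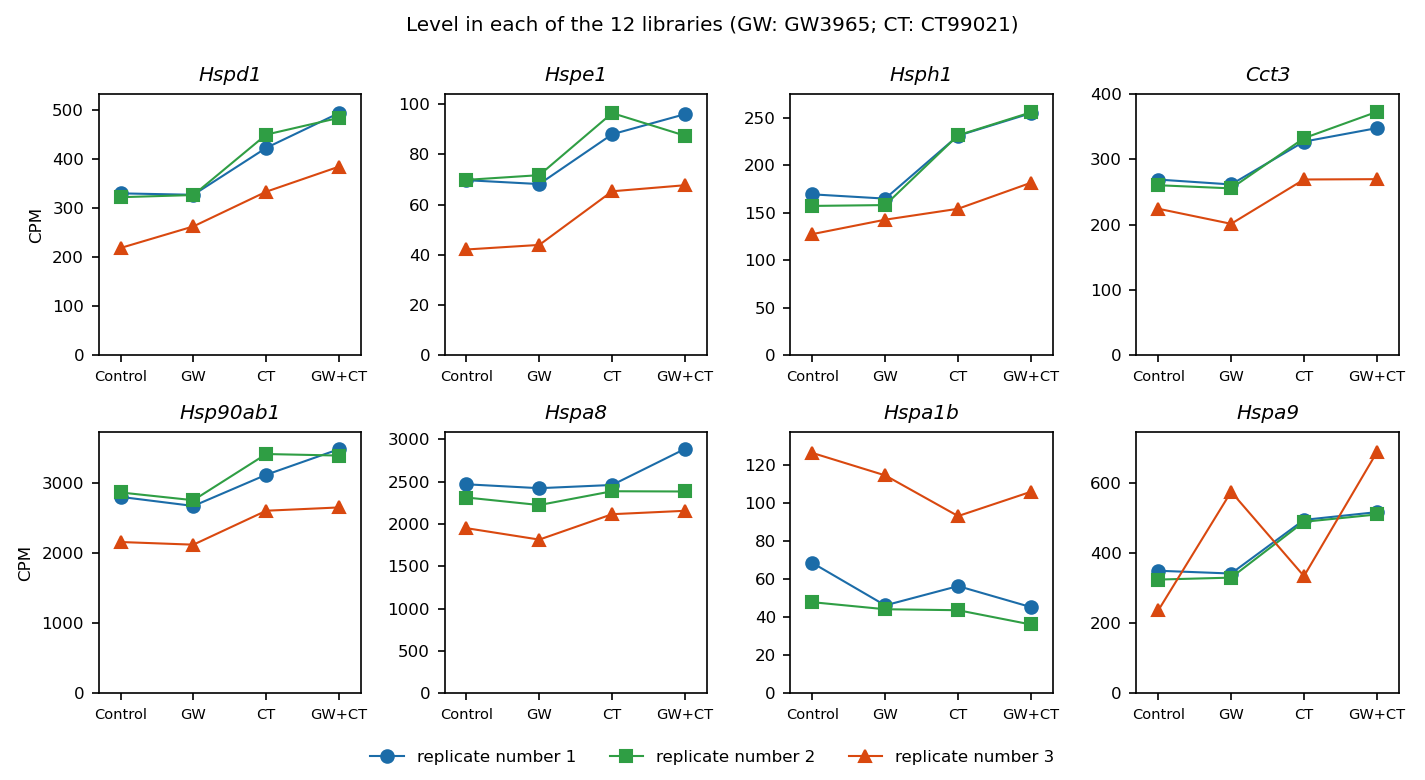
CPM (vertical axis, from 0) of 8 chaperone genes in each of the 12 libraries by group (horizontal axis), with libraries of one replicate number joined by a line. Hspd1, Hspe1, Hsph1, Cct3 and Hsp90ab1 step up with CT99021 within each replicate number. Of these, Hspe1, Hsph1 and Hsp90ab1 overlap between CT99021 and control, as Hspa8 does. Hspa1b is highest in the libraries numbered 3, and Hspa9 reaches 574 and 687 CPM in GW3965 replicate 3 and GW3965+CT99021 replicate 3.

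These genes lie head to head and share one promoter, so the sequence between them is shown. In the RefSeq promoter table (build GRCm38.p6) the window of 250 bases before to 50 after the start of Hspe1 covers chr1:55087898-55088197 on the plus strand, and 285 of its 300 bases are shared with one of the windows of Hspd1 on the other strand. Capitals mark heat shock elements, here the letters GAANNTTC or TTCNNGAA, each of which reads the same on both strands. Neighbouring elements may overlap.

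Hspe1: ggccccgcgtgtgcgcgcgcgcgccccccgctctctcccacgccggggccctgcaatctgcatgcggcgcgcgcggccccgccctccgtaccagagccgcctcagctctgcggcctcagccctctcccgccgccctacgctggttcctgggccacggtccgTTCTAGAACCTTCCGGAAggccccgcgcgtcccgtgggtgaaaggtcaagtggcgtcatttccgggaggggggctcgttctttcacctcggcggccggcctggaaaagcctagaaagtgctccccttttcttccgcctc

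The window holds 3 overlapping elements, the first starting 89 bases before the start of Hspe1. An uninterrupted run of this kind, with 3 units in a row, was found in 0.662% of the 27025 genes with a window and in 3 of the 24 listed genes that have one (Hspd1, Hspe1 and Hsph1). The run counted for Hspd1 and for Hspe1 is the same stretch of sequence. The match is a description of the letters and was not tested as a site of binding.

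Hspa9, the HSP70 of mitochondria (mortalin), gave 349, 324 and 236 CPM in control, 341, 329.8 and 574 with GW3965, 494, 489 and 334 with CT99021 and 516, 509.7 and 687 with both compounds. GW3965 replicate 3 and GW3965+CT99021 replicate 3 were high and the other libraries numbered 3 low, so control, GW3965 and CT99021 crossed. Libraries with both compounds overlapped those with GW3965 but lay above all of control and of CT99021. Of all genes 17.3% and 2.84% had groups apart in those comparisons, in either direction. Hspa9 rose by 0.90 ± 0.25 with both against control (edgeR adjusted p = 0.03), and in each of the 6 fits that left out 1 library of the groups compared the call was lost. With CT99021 alone the log2 fold change was 0.53 ± 0.25 (edgeR adjusted p = 0.174). Without the libraries numbered 3, Hspa9 changed by 0.53 ± 0.05 with CT99021 (edgeR adjusted p = 0.00148) and by 0.59 ± 0.05 with both (edgeR adjusted p = 0.00108). That fit keeps only numbers 1 and 2. It drops the libraries that held the crossing values and were already known to stand apart. Its smaller standard errors and adjusted p therefore do not replace those of the full fit. The same 2 libraries that were high for Hspa9 had 1699 and 2093 summed CPM of 6 genes of amino acid and endoplasmic reticulum stress, against 696.8 to 1006 in the other 10, and the part of that in the Hspa9 values was not tested. Trap1, the HSP90 of mitochondria, had 53.1, 63.9 and 63.9 CPM in control and 61.3, 72.9 and 72.2 with CT99021 (0.19 ± 0.07, edgeR adjusted p = 0.1). It rose by 0.30 ± 0.07 with both against GW3965 (edgeR adjusted p = 0.0172), a call kept in 2 of 6 fits that left out 1 library.

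Among the cytosolic HSP70 family, Hsph1, which encodes the HSP110 that recharges HSP70 with nucleotide (chromosome 5, position 150419419 in mm9), rose most. It was read at 169.6, 157 and 128 CPM in control, 165, 158 and 143 with GW3965, 231, 232 and 154 with CT99021 and 255, 256 and 182 with both. The CT99021 library numbered 3 lay below control replicates 1 and 2, while both compounds and GW3965 did not overlap. Hsph1 rose by 0.43 ± 0.08 with CT99021 (34.7% higher, edgeR adjusted p = 0.00902), except that the call was lost without Control replicate 2. With both compounds it rose by 0.60 ± 0.08 against control (edgeR adjusted p = 0.00167) and by 0.56 ± 0.08 against GW3965 (edgeR adjusted p = 0.00226). Its promoter window, chr5:149636287-149636586 on the minus strand of GRCm38.p6, is shown because it too holds elements in a row, with heat shock elements in capitals.

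Hsph1: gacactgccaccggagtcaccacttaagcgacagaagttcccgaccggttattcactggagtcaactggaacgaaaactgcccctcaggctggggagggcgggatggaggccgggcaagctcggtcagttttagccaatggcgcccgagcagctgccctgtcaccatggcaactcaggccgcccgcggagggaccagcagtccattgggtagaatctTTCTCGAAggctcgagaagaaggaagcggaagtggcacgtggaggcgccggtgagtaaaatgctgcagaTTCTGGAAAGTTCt

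The first element begins 33 bases before the start and the overlapping pair 37 bases after it. A second RefSeq start of Hsph1, 21 bases downstream, gives the same elements.

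Hspa8 was not past the test in any comparison of treatments. It had 2469, 2313 and 1951 CPM in control, 2423, 2224 and 1816 with GW3965, 2461, 2387 and 2116 with CT99021 and 2887, 2384 and 2156 with both. The log2 fold change with CT99021 was 0.05 ± 0.07 (95% interval -0.09 to 0.20, edgeR adjusted p = 0.621) and with both against GW3965 0.20 ± 0.07 (edgeR adjusted p = 0.0541). Hspa4, a further HSP110 type exchange factor, had 456, 495 and 343 CPM in control and 502, 562 and 371 with CT99021 (0.15 ± 0.06, edgeR adjusted p = 0.117). It rose with both compounds, by 0.22 ± 0.06 against either control or GW3965 (edgeR adjusted p = 0.0235 and 0.023). Hspa4 kept these calls in 1 and 2 of 6 fits that left out 1 library. Its close relative Hspa4l, at 52.1 to 88.0 CPM over the 12 libraries, had a log2 fold change of -0.05 ± 0.11 with CT99021.

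The stress HSP70 genes Hspa1a and Hspa1b, which are strongly induced by heat and other stress, had negative values. They lie in the same orientation on chromosome 17, listed at 35106303 and 35093373 in mm9. Hspa1a was read at 64.5, 45.3 and 112 CPM in control, 42.5, 41.6 and 103 with GW3965, 53.5, 41.2 and 82.9 with CT99021 and 44.5, 35.3 and 96.1 with both. Hspa1b gave 68.5, 47.9 and 126 CPM in control, 46.2, 44.2 and 114 with GW3965, 56.4, 43.7 and 93.1 with CT99021 and 45.3, 36.2 and 106 with both. In every group the library numbered 3 was the highest, and each treated library lay below the control of its number. With CT99021 the log2 fold changes were -0.28 ± 0.12 for Hspa1a and -0.29 ± 0.11 for Hspa1b, neither past the test (edgeR adjusted p = 0.133 and 0.113). With GW3965 they were -0.28 ± 0.12 and -0.27 ± 0.11 (edgeR adjusted p = 0.959 for both). Both fell with both compounds against control, Hspa1a by 0.37 ± 0.12 and Hspa1b by 0.42 ± 0.11 on the log2 scale (edgeR adjusted p = 0.0492 and 0.0282). The Hspa1a call was lost in all 6 fits without 1 library and the Hspa1b call in 5, being kept without GW3965+CT99021 replicate 3. Against GW3965 the combination gave -0.09 ± 0.12 and -0.14 ± 0.11. These comparisons share the control libraries.

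The promoter window of Hspa1b (chr17:34959189-34959488, minus strand, GRCm38.p6) is shown as that of a textbook target of heat shock factor, with its 1 heat shock element in capitals.

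Hspa1b: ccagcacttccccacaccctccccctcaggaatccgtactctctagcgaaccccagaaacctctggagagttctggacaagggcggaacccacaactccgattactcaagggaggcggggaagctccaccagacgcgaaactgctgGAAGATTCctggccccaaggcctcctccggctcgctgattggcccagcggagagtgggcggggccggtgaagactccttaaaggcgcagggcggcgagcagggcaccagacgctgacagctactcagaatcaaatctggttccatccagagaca

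The element starts 104 bases before the start. The window of Hspa1a has it at the same place and is identical in 296 of 300 bases. The transcripts are alike as well: 58.8% of the 50-base words of Hspa1a transcripts in GENCODE M21 occur in those of Hspa1b, so how the authors' counting split the reads between them is uncertain and their sum is the firmer quantity. It came to 155 ± 75.0 CPM in control, 131 ± 75.4 with GW3965, 124 ± 47.0 with CT99021 and 121 ± 70.7 with both (SD, n = 3).

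None of the 3 partners of HSP70 was past the test with CT99021. Dnaja1, a J protein that delivers substrates to HSP70, had 357, 339 and 331 CPM in control and 296, 329 and 305 with CT99021, groups that did not overlap, and a log2 fold change of -0.14 ± 0.07 that missed the test (edgeR adjusted p = 0.197). Dnajb1, the J protein of stressed cells, had 69.1, 66.2 and 68.2 CPM in control, 66.4, 60.1 and 60.2 with GW3965, 75.8, 73.2 and 60.4 with CT99021 and 73.6, 66.0 and 60.5 with both, and the groups overlapped. Its log2 fold change with CT99021 was 0.04 ± 0.08 (95% interval -0.13 to 0.21, edgeR adjusted p = 0.786). Bag3, a nucleotide exchange factor that couples HSP70 to autophagy, ran from 21.2 to 47.0 CPM, with 0.24 ± 0.08 for CT99021 (edgeR adjusted p = 0.0783). It rose by 0.31 ± 0.08 with both against GW3965 (edgeR adjusted p = 0.0263), a call lost in each of the 6 fits that left out 1 library.

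Of HSP90 and its co-chaperones 3 of 9 rose with CT99021, against 8.23% of all genes higher, and all 9 were positive. Hsp90ab1 (chromosome 17, position 45704726 in mm9) was read at 2808, 2871 and 2163 CPM in control, 2678, 2760.0 and 2125 with GW3965, 3124, 3420.0 and 2610.0 with CT99021 and 3490.0, 3398 and 2657 with both. Each CT99021 library was above the control of its number, yet the CT99021 library numbered 3 lay below the first 2 controls. Hsp90ab1 rose by 0.23 ± 0.06 with CT99021 (17.0% higher, edgeR adjusted p = 0.0276), a call kept in 1 of 6 fits without a library, that without CT99021 replicate 1. It also rose by 0.28 ± 0.06 with both against control (edgeR adjusted p = 0.0087) and by 0.34 ± 0.06 with both against GW3965 (edgeR adjusted p = 0.00416). Hsp90aa1 had 1051, 987 and 777 CPM in control, 1024, 1010.0 and 827 with GW3965, 1115, 1106 and 824 with CT99021 and 1220.0, 1174 and 894 with both. Its log2 fold change with CT99021 was 0.11 ± 0.06 (95% interval -0.01 to 0.24, edgeR adjusted p = 0.212), and it rose by 0.22 ± 0.06 with both against control (edgeR adjusted p = 0.0218) and by 0.19 ± 0.06 against GW3965 (edgeR adjusted p = 0.0363). Each of these calls of Hsp90aa1 was kept in 1 of 6 fits without a library. The constitutive gene outnumbered the inducible one by 2.91 to 3.58 times per kilobase in the 12 libraries.

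Ppid, the cyclophilin 40 that binds HSP90, and Ahsa1, the activator of its ATPase, were the co-chaperones that rose with CT99021. Ppid had 54.2, 59.8 and 46.0 CPM in control, 56.3, 59.3 and 50.8 with GW3965, 71.6, 76.0 and 57.1 with CT99021 and 71.0, 82.2 and 65.1 with both. The combination did not overlap with GW3965, while CT99021 overlapped with control. Ppid rose by 0.35 ± 0.07 with CT99021 (edgeR adjusted p = 0.00835), by 0.45 ± 0.07 with both against control (edgeR adjusted p = 0.00229) and by 0.39 ± 0.07 against GW3965 (edgeR adjusted p = 0.00409). Ahsa1 had 125, 132 and 90.6 CPM in control, 117, 125 and 77.7 with GW3965, 144, 169 and 101 with CT99021 and 164, 173 and 96.0 with both. It rose by 0.24 ± 0.07 with CT99021 (edgeR adjusted p = 0.0464), a call kept in 1 of 6 fits without a library. With both against control it rose by 0.30 ± 0.07 (edgeR adjusted p = 0.0185), a call kept in 2 of 6. With both against GW3965 it rose by 0.42 ± 0.07 (edgeR adjusted p = 0.00413). Ahsa1 libraries numbered 3 were the lowest of each group. St13, the HIP protein that steadies HSP70, had 212, 217 and 192 CPM in control, 206, 209.7 and 214 with GW3965, 251, 254 and 216 with CT99021 and 263, 269 and 233 with both. It missed the test with CT99021 (0.21 ± 0.07, edgeR adjusted p = 0.0567) and rose by 0.30 ± 0.07 and 0.28 ± 0.07 with both against control and against GW3965 (edgeR adjusted p = 0.0128 and 0.0168). St13 kept these calls in 3 and 2 of 6 fits without a library. The adaptor Stip1 (HOP), which hands clients from HSP70 to HSP90, had 0.14 ± 0.06 with CT99021 (edgeR adjusted p = 0.138). Stip1 rose by 0.20 ± 0.06 with both against control (edgeR adjusted p = 0.0389), a call lost in all 6 fits without a library. With both against GW3965 it rose by 0.25 ± 0.06 (edgeR adjusted p = 0.0152), a call kept in 2 of 6. Cdc37, which brings kinases to HSP90, rose in 1 comparison, both against GW3965 (0.29 ± 0.08, edgeR adjusted p = 0.0283), a call kept in 1 of 6. Fkbp4, the immunophilin of steroid receptor complexes, was not past the test in any comparison of treatments (0.11 ± 0.07 with CT99021, edgeR adjusted p = 0.366).

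Of the 8 TRiC subunits 6 rose with CT99021, against 8.23% of all genes higher, and all 8 rose with both compounds, whether set against control (11.3% of all genes higher) or against GW3965 (11.8%). With CT99021 alone no subunit was called once the first or second control library was dropped, Cct3 was the 1 subunit called once the first or second CT99021 library was dropped, and 4 were called once Control replicate 3 was dropped. With both compounds at least 6 of the 8 were called against control and at least 7 against GW3965 in each fit without 1 library. Their summed level was 2617 ± 403 CPM in control, 2560.0 ± 375 with GW3965, 3079 ± 479 with CT99021 and 3244 ± 501 with both (SD, n = 3). The SD of these sums holds the difference between replicate numbers, since the library numbered 3 was the lowest in each group for every subunit, tied with replicate 2 for Cct4 under GW3965. Within replicate numbers all 24 ratios of CT99021 to control were above 1, from a log2 ratio of 0.14 (Cct7) to 0.35 (Cct3). The 24 ratios of both compounds to GW3965 ran from 0.19 (Cct7) to 0.54 (Cct3). The coefficient of variation of the 8 levels per kilobase was 16.8% to 19.9% in the 12 libraries. The order of the subunits was not fixed, since the ratio of Cct6a to Cct4 per kilobase ran from 1.18 to 1.31 in the libraries numbered 1 and 2 and from 0.80 to 1.01 in those numbered 3.

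**Figure D3:**
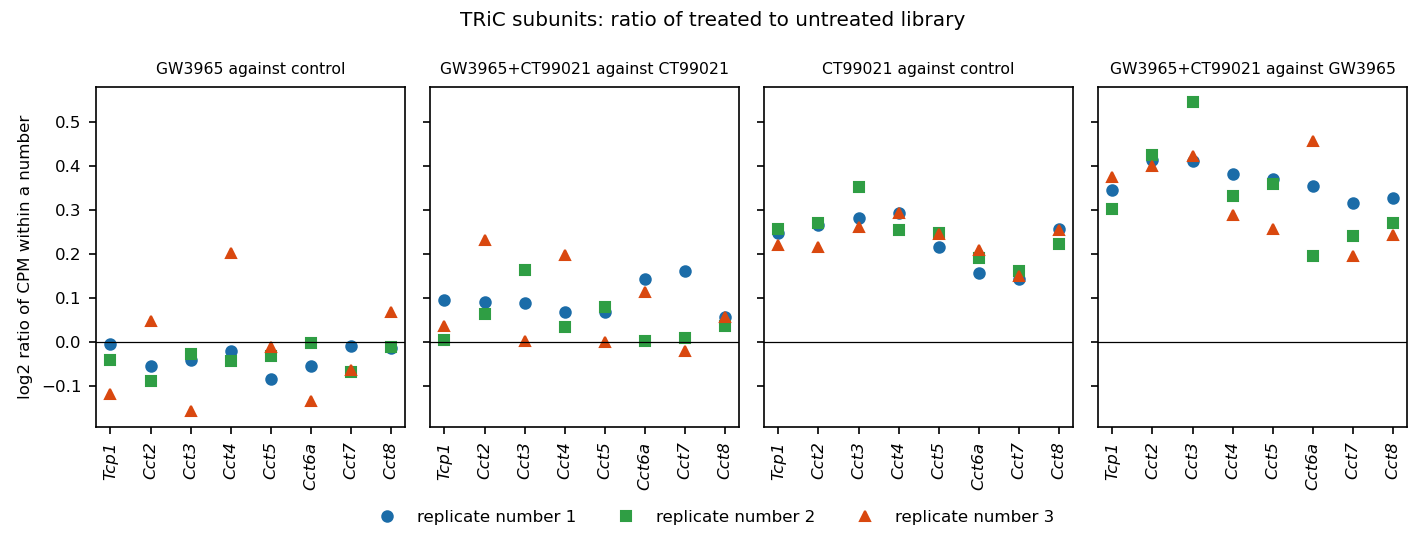
Log2 ratio of CPM of the treated to the untreated library of the same replicate number (vertical axis) for the 8 TRiC subunits (horizontal axis) in 4 comparisons, one point per number. All ratios lie above 0 where CT99021 was added, between 0.14 and 0.54, while GW3965 against control runs from -0.16 to 0.20 and GW3965+CT99021 against CT99021 from -0.02 to 0.23.

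Cct3 (chromosome 3, position 88100937 in mm9), the gamma subunit, was read at 269, 260.5 and 224 CPM in control, 262, 256 and 201 with GW3965, 327, 333 and 269 with CT99021 and 348, 373 and 269.8 with both. The CT99021 and control groups did not overlap, but only just, at 269.3 CPM in CT99021 replicate 3 and 269.2 in Control replicate 1. Both compounds and GW3965 did not overlap either. Of all genes 14.8% and 15.4% had groups apart in these comparisons. Cct3 rose by 0.30 ± 0.06 (23.0% higher, edgeR adjusted p = 0.0114) with CT99021, by 0.39 ± 0.06 with both against control and by 0.46 ± 0.06 with both against GW3965 (edgeR adjusted p = 0.00305 and 0.00153). Cct4, the delta subunit, had 286, 277 and 234 CPM in control, 282, 269 and 269 with GW3965, 350.0, 330.2 and 286 with CT99021 and 367, 338 and 329 with both. It was the other subunit without overlap in CT99021 against control, and rose by 0.28 ± 0.07 (edgeR adjusted p = 0.0194), and by 0.38 ± 0.07 and 0.33 ± 0.07 with both against control and GW3965 (edgeR adjusted p = 0.00421 and 0.00697). Cct2, the beta subunit, had 402, 392 and 305 CPM in control, 388, 369 and 316 with GW3965, 484, 473 and 354 with CT99021 and 516, 494 and 416 with both. Cct2 rose by 0.25 ± 0.06 with CT99021 (edgeR adjusted p = 0.0193), and by 0.38 ± 0.06 and 0.41 ± 0.06 with both against control and GW3965 (edgeR adjusted p = 0.00279 and 0.00193).

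Tcp1, the alpha subunit, had 414, 424 and 335 CPM in control, 413, 412 and 309 with GW3965, 491, 506 and 391 with CT99021 and 525, 508 and 400.4 with both. It rose by 0.24 ± 0.05 with CT99021 (edgeR adjusted p = 0.0162) and by 0.34 ± 0.05 with both against GW3965 (edgeR adjusted p = 0.00286). Cct5, the epsilon subunit, had 403, 384 and 288 CPM in control, 380.0, 375 and 286 with GW3965, 468, 456 and 341 with CT99021 and 491, 482 and 341 with both. Cct5 rose by 0.24 ± 0.05 with CT99021 (edgeR adjusted p = 0.0168) and by 0.33 ± 0.05 with both against GW3965 (edgeR adjusted p = 0.00319). In these genes, as in Cct8, the theta subunit, CT99021 replicate 3 fell below the first 2 controls while lying above its own. Cct8 had 362, 366 and 271 CPM in control and 432, 426 and 323 with CT99021, and rose by 0.24 ± 0.05 (edgeR adjusted p = 0.0138). The 2 subunits not past the test with CT99021 were Cct6a, the zeta subunit, at 0.19 ± 0.06 (edgeR adjusted p = 0.0663), and Cct7, the eta subunit, at 0.15 ± 0.06 (edgeR adjusted p = 0.1). With both compounds against GW3965 these rose by 0.33 ± 0.06 and 0.25 ± 0.06 (edgeR adjusted p = 0.0054 and 0.0139). The helpers were not past the test: Pfdn2, a subunit of prefoldin, which passes chains to TRiC, had 0.10 ± 0.09 with CT99021 (edgeR adjusted p = 0.482), and Pdcl3, a phosducin-like partner of TRiC, had -0.07 ± 0.08 (edgeR adjusted p = 0.61). Neither was past the test in the other comparisons of treatments.

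The libraries with both compounds were set against control and against GW3965. Relative to control 19 of the 32 rose and 2 fell (Hspa1a and Hspa1b), with 20.3% of all genes past the test and 11.3% higher. Relative to GW3965 21 rose and 0 fell, with 20.6% of all genes past the test and 11.8% higher, and 26 of the 32 were higher in all 3 replicate pairs against 29.8% of all genes. At 20 CPM or more the shares past the test and higher were 16.9% and 17.8%. Both compounds and GW3965 did not overlap for 8 of the 32, all higher, against 15.4% of all genes in either direction. Without the block edgeR called 0 of the 32 in both (8 at an unadjusted p under 0.05 in each), against 0.115% and 0.0769% of all genes. Leaving out 1 library, the 21 against control became 11 without Control replicate 1, 10 without Control replicate 2, 13 without GW3965+CT99021 replicate 1 and 12 without GW3965+CT99021 replicate 2. The 21 against GW3965 became 13 without GW3965+CT99021 replicate 1 and 13 without GW3965 replicate 2. Hspd1, Hspe1, Hsph1, Ppid, Tcp1, Cct2, Cct3, Cct4, Cct5 and Cct8 were past the test in both comparisons in all of these fits.

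CT99021 against control and both compounds against GW3965 measure the same addition without and with GW3965 and share no library, although they share the replicate numbers and 1 estimate of the spread. All 12 genes past the test in the former were among the 21 of the latter. Of all genes, 1893 were past the test in both, which is 76.6% of the former calls and 58.9% of the latter, all with the same sign. Of the 32 genes, 26 were positive in both, 5 were negative in both and Pdcl3 changed sign.

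GW3965 alone moved none of the 32 past the test (2 at an unadjusted p under 0.05, Hspa1a and Hspa1b), against 0.0192% of all genes. Without the block the share of all genes past the test was 0% by edgeR (2 of 21258 genes by DESeq2), and the count among the 32 was 0 by edgeR and by DESeq2 (0 at an unadjusted p under 0.05 by edgeR). Log2 fold changes ran from -0.28 (Hspa1a) to 0.44 (Hspa9), with a median of -0.05. In 17 of the 32, among them Hspa8, Hsp90ab1, Ahsa1, Tcp1, Cct3, Cct5, Cct6a and Cct7, each GW3965 library was below the control of its number, against 19% of all genes. With RLE scaling factors in place of TMM factors the count was 14. Added to CT99021, GW3965 gave 14 of the 32 higher in all 3 pairs (12 with RLE factors), against 13.9% of all genes. No gene of the 32 was past the test there either, with the block against 0.0192% of all genes (1 at an unadjusted p under 0.05, Hspd1) and without it against 0%, by edgeR. DESeq2 called 0 of the 32 there with and without the block, and without it 2 of 21258 genes in all. The interaction, which asks whether the compounds together differ from the sum of their log2 changes, was past the test in 0 of the 32 with or without the block, by edgeR or by DESeq2 (0% of all genes by edgeR, and 0 of the 32 at an unadjusted p under 0.05 with the block). It was positive for 28 of the 32 and for all 8 TRiC subunits, with a median of 0.10 and an edgeR adjusted p of 0.999 for each TRiC subunit. The values do not show that the effects are equal: the standard error of the interaction was 0.07 to 0.09 log2 units for the TRiC subunits.

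Replicate number went with differences in nearly all of these genes. Between the 4 libraries numbered 3 and the 8 others, with group means taken out, 26 of the 32 were lower and 3 higher past the test, against 59.4% of all genes in either direction and 30.6% lower (41.5% lower at 20 CPM or more). The median log2 difference was -0.38, both over the 32 genes and over the 8 TRiC subunits, all of which were lower. The largest decreases were -0.64 ± 0.06 for Ahsa1, -0.62 ± 0.05 for Cct6a, and -0.58 for Bag3 and Hspe1. The 3 genes higher in libraries numbered 3 were Hspa1b (1.19 ± 0.08), Hspa1a (1.11 ± 0.09) and Hspb1 (0.86 ± 0.16), 3 of the 8 textbook stress inducible genes. Of the other 5, Bag3 (-0.58), Hsph1 (-0.40), Hsp90aa1 (-0.38) and Dnaja1 (-0.14) were lower past the test and Dnajb1 was at -0.14. Hspb1 had 5.00, 1.38 and 3.49 CPM in control replicates 1 to 3, so that it was number 2 that stood low, and it was read with as few as 17 counts. Hspa9, Dnajb1 and Trap1 were not past the test. The 4 libraries of a number share whatever the number marks, so these p-values describe these libraries only.

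**Figure D4:**
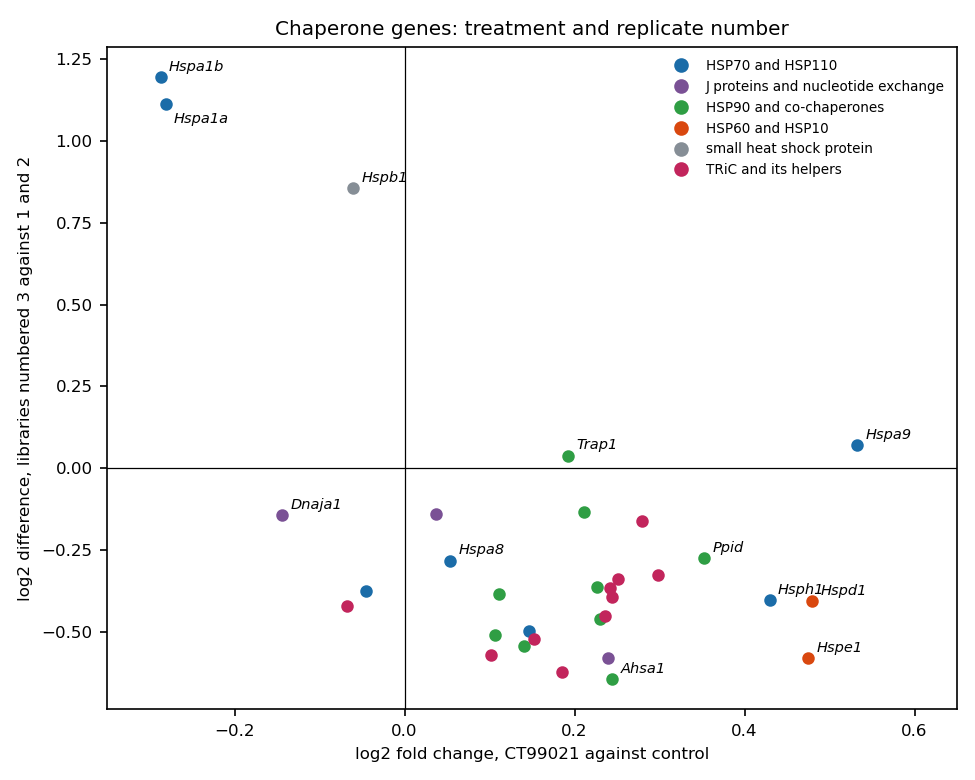
Log2 fold change of CT99021 against control (horizontal axis) and log2 difference of libraries numbered 3 from those numbered 1 and 2 (vertical axis) for the 32 genes, coloured by family. Most genes lie at the lower right, with higher levels under CT99021 and lower levels in libraries numbered 3, while Hspa1a and Hspa1b lie at the upper left, at -0.28 and 1.11 and at -0.29 and 1.19.

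Several lists of markers of other cells moved with the number as well. The 4 erythroid markers found, of 5 listed, summed to 7221 to 11740.0 CPM in libraries numbered 3 and to 2067 to 6156 in the rest, and 5 mesenchyme markers to 2385 to 3593 against 216.9 to 2127. The 5 neuron markers found, of 6, came to 1017 to 1339 against 1309 to 1959, and 4 markers of the oligodendrocyte lineage to 98.2 to 181 against 19.9 to 40.8. Endothelial markers (27.4 to 50.6 against 21.3 to 43.8 CPM) and microglia and macrophage markers (9.17 to 15.0 against 8.49 to 23.75) did not separate by number. Of the midbrain and progenitor markers, Foxa2 and Shh were highest in the library numbered 3 of each group, while Sox2 and En1 were lowest there. No listed gene was at 0 in all libraries. Some marker sums moved with CT99021 too. For numbers 1 to 3, mesenchyme markers went from 1329, 216.9 and 2737 CPM in control to 1470.0, 320.6 and 3593 with CT99021, and from 1127, 229.5 and 2385 with GW3965 to 2127, 874.6 and 2929 with both, higher in all 6 pairs. Of these 5 genes 1 rose with CT99021, against 8.23% of all genes, and 3 with both against GW3965, against 11.8%. The midbrain and progenitor markers went from 1299, 1717 and 1075 to 993.4, 1439 and 922.9 CPM, and from 1281, 1757 and 1176 to 1145, 1256 and 958.4, lower in all 6. Of these 11 genes 4 fell with CT99021, against 7.59% of all genes lower, and 5 with both against GW3965, against 8.81%. Among them were Nes (-0.44 ± 0.11 with CT99021, edgeR adjusted p = 0.0294) and Sox2 (-0.32 ± 0.07, edgeR adjusted p = 0.0188). Nes alone held 738, 882 and 470 CPM of the control sums. Not all went lower: Shh was higher with CT99021 than in control within each replicate number, and En1 within numbers 1 and 2. Shh went from 24.7, 23.4 and 118 CPM to 24.9, 29.8 and 121. The sum of the 6 stress genes was higher in all 6 pairs as well, while neuron markers were mixed, at 1932, 1340.0 and 1339 CPM in control and 1704, 1426 and 1162 with CT99021. The part of any of these lists in the chaperone values was not tested, and in bulk RNA fewer cells of a type and less RNA per cell cannot be told apart. In CT99021 replicate 1 the gene Lars2 held 7.95% of counts, against at most 0.142% elsewhere, and without that library 7 of the 32 rose with CT99021.

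Promoter windows were at hand for 24 of the 32 genes, credited to RefSeq on GRCm38.p6. A heat shock element in either form lay in a window of 13 of the 24 (54.2%), against 17.0% of the 27025 genes in the table. In the 250 bases before the start alone the counts were 11 of 24 (45.8%) and 14.5%. These counts are not all of separate sequences. Windows of Hspd1 and Hspe1 share 285 of 300 bases, and those of Hspa1a and Hspa1b are identical in 296. The CCAAT box (read on both strands) was in 13 of the 24 (54.2%) and 41.1% of genes, and CACGTG in 2 (Hsph1 and Hspd1) and 8.09%. Of the 6 subunits of TRiC that rose with CT99021, 5 had a window, and Cct2 and Cct5 held an element, at 42 and 34 bases before a start. No match says only that these letters are not in this window.

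**Figure D5:**
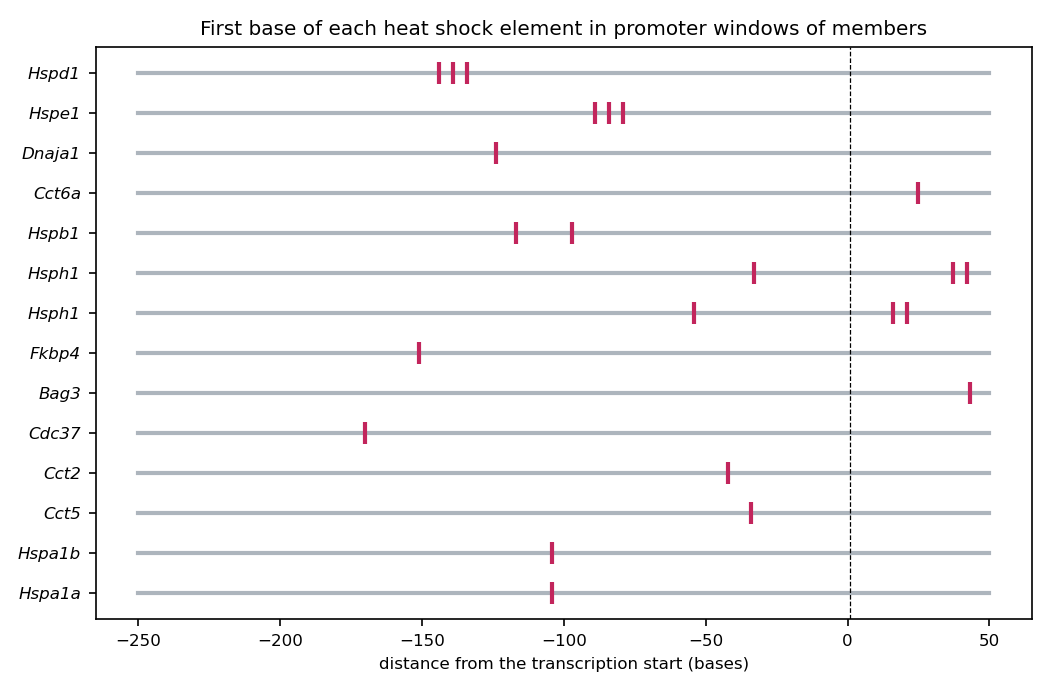
First base of each heat shock element (red marks) in the promoter windows that hold one, by distance from the transcription start in bases (horizontal axis, dashed line at the start), one grey line per window and gene. Hspd1 and Hspe1 hold 3 overlapping elements each, Hspa1a and Hspa1b hold 1 at the same distance of -104, and Hsph1 has 2 starts.

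The windows of Cct5 (chr15:31601797-31602096, minus strand) and Hspb1 (chr5:135887669-135887968, plus strand) are shown as those of a gene that rose with CT99021 and of one that did not, with heat shock elements in capitals, 1 in Cct5 and 2 in Hspb1.

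Cct5: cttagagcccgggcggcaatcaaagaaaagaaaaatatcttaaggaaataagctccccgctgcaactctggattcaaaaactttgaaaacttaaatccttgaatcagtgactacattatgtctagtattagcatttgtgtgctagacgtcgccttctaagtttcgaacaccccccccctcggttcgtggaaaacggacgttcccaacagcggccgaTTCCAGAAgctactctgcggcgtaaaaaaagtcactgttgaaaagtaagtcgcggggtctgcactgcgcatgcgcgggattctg

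Hspb1: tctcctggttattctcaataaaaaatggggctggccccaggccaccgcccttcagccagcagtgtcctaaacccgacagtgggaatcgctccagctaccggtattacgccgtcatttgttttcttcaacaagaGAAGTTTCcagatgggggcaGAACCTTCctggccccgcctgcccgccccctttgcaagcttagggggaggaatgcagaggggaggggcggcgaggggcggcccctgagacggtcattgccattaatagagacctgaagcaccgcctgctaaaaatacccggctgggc

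Genes with and without an element in the window were found among both those that rose and those that did not: Hspd1, Hspe1, Hsph1, Cct2 and Cct5 held one and rose, and Hspa1a, Hspa1b, Hspb1, Dnaja1, Bag3, Cdc37, Fkbp4 and Cct6a held one and were not past the test with CT99021, while Tcp1, Cct3, Cct8 and Ahsa1 rose with none in the window. Of the 8 textbook stress inducible genes (Hspa1a, Hspa1b, Hsph1, Hspb1, Dnajb1, Bag3, Hsp90aa1 and Dnaja1) 1, Hsph1, rose with CT99021 (12.5%, near the 8.23% of all genes higher), and 4 were negative. Of the 4 mitochondrial genes 2 rose with CT99021, against the same 8.23%, and all 4 were positive.

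Other chaperone genes were taken from a list of 99, of which 90 were tested. With CT99021 10 rose and 4 fell, which is 15.6% of the 90 against 15.8% of all genes, with a median log2 fold change of 0.09. With both compounds 21 rose and 4 fell against control (27.8%, against 20.3% of all genes), and 22 rose and 3 fell against GW3965 (27.8%, against 20.6%). Of all genes at 20 CPM or more, 21.7%, 26.9% and 27.5% were past the test in these comparisons, in either direction. How many of the 90 reach that level was not computed. The 4 of this list with the largest change past the test under CT99021 were Dnajc28, Tbcc, Dnajc6 and Dnajc27. Dnajc28, a J protein, fell by 1.48 ± 0.21 on the log2 scale (edgeR adjusted p = 0.00271), from 8.15, 6.82 and 8.33 CPM in control to 2.20, 2.77 and 3.43. Tbcc, a tubulin folding cofactor, fell by 0.61 ± 0.18 (edgeR adjusted p = 0.0449), and Dnajc6, the auxilin of clathrin uncoating in neurons, fell by 0.59 ± 0.12 (edgeR adjusted p = 0.01). Dnajc27, a J protein with a Rab-like domain, rose by 0.48 ± 0.10 (edgeR adjusted p = 0.0119).

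Regulators of the chaperone genes were read too. Hsf1, which encodes the main heat shock transcription factor, had 36.4, 39.9 and 28.6 CPM in control, 39.2, 34.5 and 41.1 with GW3965, 50.6, 51.5 and 40.7 with CT99021 and 42.7, 50.7 and 49.7 with both. Its CT99021 libraries lay above all 3 controls, and it rose by 0.44 ± 0.13 (edgeR adjusted p = 0.0492). Of all genes 14.8% had these groups apart in either direction. Without the block edgeR called 0 genes higher in this comparison. With both against GW3965 the log2 ratios of Hsf1 within numbers 1 to 3 were 0.12, 0.56 and 0.27. Hsf2, a related factor, had -0.04 ± 0.07 with CT99021 (edgeR adjusted p = 0.718). Myc, a growth regulator and target of Wnt signalling, fell with CT99021 by 0.57 ± 0.15 on the log2 scale (edgeR adjusted p = 0.0294).

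Some of the values rest on sequence that other genes share, and how the authors' counting treated such reads is not known here. By 50-base words the shared part was largest for Hspa1a (66.3%), Hspa1b (62.3%), Hspb1 (50.1%), Hsp90aa1 (47.5%), Hspd1 (39.7%) and Hspa8 (39.4%), mostly with pseudogenes outside the Hspa1 pair, so levels of these genes are uncertain. Pfdn2 shared 25.1% with Klhdc9 and Tcp1 10.2% with Acat3. It was 0 for Hsph1, Hspa4, Bag3, Cct2 and Cct5, of which Hsph1, Cct2 and Cct5 rose with CT99021.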

How the data were processed

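RNA-seq counts of 12 libraries (4 groups of 3) came as 1 table of raw read counts per gene, deposited by the authors with no normalisation. The submitters' processing notes list Bowtie and mm9. The counting program, its use of strand and its handling of repeated sequence were not given in the sources used here. The 1217 rows of repeat families (0.196% to 0.643% of counts) were left out. All genes were fitted with the quasi-likelihood test of edgeR 4.0.16 in R 4.3.3, with TMM factors, filterByExpr and Benjamini-Hochberg adjustment over 15608 genes, once without a block and once with replicate number as one. DESeq2 1.42.0, RLE factors, no filter on low counts and left-out libraries were alternatives. CPM were computed from the counts and TMM factors. Replicate numbers pair the libraries by the data, not the labels: all 18 same-number pairs correlated in their deviations from group means (r = 0.496 to 0.828). The fit without the block was the planned one, and genes are described from the fit with the block. The fits were also run on simulated counts with the same spread for every gene, which does not measure their error rate on these data. Full values were given to up to 12 genes past the test per comparison, largest change first, and to 11 genes in CT99021 against control whatever their result. Members and lists were chosen with earlier results of these data known. Promoters are from RefSeq, GRCm38.p6. Intervals are 95%.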

Additional observations from a re-analysis of the deposited data

Results flagged for a closer look

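The change with GW3965 had opposite signs without and with CT99021 in 4 TRiC subunits: each of the 3 GW3965 libraries was below its control, and each of the 3 libraries with both compounds was above the CT99021 library of its number. The difference of the 2 changes, the interaction on the log2 scale, was 0.10 for Tcp1 (0.0999962), 0.16 for Cct3 (0.161195), 0.09 for Cct5 (0.0931143) and 0.15 for Cct6a (0.148679). None was past the test of the interaction (edgeR adjusted p = 0.999 for each). The 4 genes were picked by this pattern, and its share among all genes was not computed. Each pattern includes a very small log2 ratio. For GW3965 against control it was -0.0035 for Tcp1 (number 1) and -0.0025 for Cct6a (number 2). For both compounds against CT99021 it was 0.0029 for Cct3 and 0.0012 for Cct5 (number 3). The signs of ratios this small depend on the scaling factors chosen.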

How the results depend on the processing

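Without the replicate block, as planned, edgeR called 0 of the 32 genes in each comparison. Replicate numbers were treated as pairing the libraries, and with the block 12 were called in CT99021 against control, 21 in GW3965+CT99021 against control and 21 in GW3965+CT99021 against GW3965, with 0 in the other 3 comparisons of treatments. DESeq2 without the block called 1 in GW3965+CT99021 against control. With the block, leaving out 1 library gave 3 to 12 (4 and 3 without Control replicates 1 and 2, 7 and 5 without CT99021 replicates 1 and 2), 10 to 17 (11 and 10 without Control replicates 1 and 2, 13 and 12 when replicate 1 or 2 of the combination was dropped) and 13 to 19 calls (13 without GW3965+CT99021 replicate 1 or GW3965 replicate 2). Leaving out the libraries numbered 3, as planned, gave 13 in CT99021 against control. It gave 22 in GW3965+CT99021 against control and 21 in GW3965+CT99021 against GW3965. Leaving out GW3965+CT99021 replicate 2 as well was chosen after seeing the data. There the median log2 fold change of the 32 genes in CT99021 against control was 0.18. No result changed direction past the test, while 131 of the single-gene values lost the threshold under an alternative and 6 gained it. In CT99021 against control all 8 TRiC subunits were positive under RLE factors, no filter, DESeq2 and each left-out library. Depth limits Hspb1 most, with 17 to 108 counts.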
